A study of Mus musculus with 46 samples.

Results

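The genes of the proteasome, the protease complex that degrades proteins tagged with ubiquitin, were followed in single mouse ovarian follicles over the first 8 h of an ovulatory stimulus. Members were taken by name, as every symbol in the count table that starts with Psm, a letter a to g and a digit, provided that it had at least 1 count among the 6 follicles of batch 2 at 1 h and 4 h. Of 25147 genes 50 met the rule and none with such a name was dropped. They comprised 14 subunits of the core particle (Psma1 to Psma7 and Psmb1 to Psmb7), 17 of the regulatory particle (6 ATPases, Psmc1 to Psmc6, and 11 other subunits of the Psmd series) and 3 immune subunits (Psmb8, Psmb9 and Psmb10). The remainder were 4 activators (Psme1 to Psme4), 1 inhibitor (Psmf1), 7 assembly factors (Psmg1 to Psmg4, Psmd5, Psmd9 and Psmd10) and 2 forms restricted to other tissues (Psma8 of testis and Psmb11 of thymus). Psmc3ip, a factor of meiotic recombination, and Psme2b, a copy of Psme2, matched by name only. The member with the fewest counts in those 6 follicles was Psmc3ip, with 3 counts together, level with Psma8, and the 43 members with enough counts entered the tests.

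All follicles came from CD-1 mice and grew singly in alginate beads for 8 days with 10 mIU/ml recombinant follicle-stimulating hormone; the labels give neither the age of the mice nor which follicles shared an animal. They were then freed from the beads and moved to a maturation medium with 1.5 IU/ml hCG (human chorionic gonadotropin, which acts on the receptor of the ovulatory luteinizing hormone), 10 ng/ml epidermal growth factor, 10 mIU/ml of the follicle-stimulating hormone and 10% serum. Follicles were frozen at 0 h (9, all in batch 2), 1 h (10 in batch 1 and 3 in batch 2), 4 h (10 in batch 1 and 3 in batch 2) and 8 h (11, all in batch 1), and the samples include no untreated follicles of matched hours, so hCG, the other changes of medium and time in culture cannot be told apart. In batch 1, the 8 h and 1 h follicles carry the name of a first plate and all 10 follicles at 4 h that of a second, and 5 of the 9 follicles at 0 h carry an unexplained mark, _ds. Replicates 11, 12 and 13 at 1 h and at 4 h are the follicles of batch 2.

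In the proteasome, the barrel-shaped core particle holds the proteolytic sites inside 2 inner rings of beta subunits, and outer rings of alpha subunits close its ends. The regulatory particle caps the barrel, binds ubiquitin chains, removes them and unfolds the substrate with its ring of ATPases, while other activators open the gate without ubiquitin. Interferon can replace the catalytic beta subunits by immune subunits, which alter the peptides offered on MHC class I molecules. In the ovary, ubiquitin-dependent proteolysis is best known for removing cyclin B when the oocyte passes through meiosis.

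To show the DNA beside which the transcripts described below start, the RefSeq promoters (GRCm38.p6, 250 bases before to 50 after the annotated start) of the 5 core and regulatory members on which the results turn most are printed 5′ to 3′ on the strand of the gene. The capitals mark, in Psmd2, Psmd11 and Psmd13, the letters CCGGAAG of an ETS motif on either strand. In Psmb5 they mark TGACNNNGC, the core of the antioxidant response element, and in Psma2 the letters CCAAT. The coordinates are chr16:20651402-20651701 (+) for Psmd2, chr11:80428365-80428664 (+) for Psmd11, chr7:140882144-140882443 (+) for Psmd13, chr14:54617946-54618245 (−) for Psmb5 and chr13:14612992-14613291 (+) for Psma2.
Psmd2: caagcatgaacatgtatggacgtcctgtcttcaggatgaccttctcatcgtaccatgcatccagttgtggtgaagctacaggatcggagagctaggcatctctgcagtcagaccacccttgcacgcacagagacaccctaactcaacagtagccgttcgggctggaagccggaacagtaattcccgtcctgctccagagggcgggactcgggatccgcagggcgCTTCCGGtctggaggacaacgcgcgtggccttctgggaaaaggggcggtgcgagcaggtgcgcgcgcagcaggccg
Psmd11: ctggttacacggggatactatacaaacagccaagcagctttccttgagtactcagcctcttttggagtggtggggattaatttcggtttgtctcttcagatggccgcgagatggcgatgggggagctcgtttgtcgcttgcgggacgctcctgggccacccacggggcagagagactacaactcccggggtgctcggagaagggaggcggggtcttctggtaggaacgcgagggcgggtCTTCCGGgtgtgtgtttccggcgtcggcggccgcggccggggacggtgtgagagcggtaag
Psmd13: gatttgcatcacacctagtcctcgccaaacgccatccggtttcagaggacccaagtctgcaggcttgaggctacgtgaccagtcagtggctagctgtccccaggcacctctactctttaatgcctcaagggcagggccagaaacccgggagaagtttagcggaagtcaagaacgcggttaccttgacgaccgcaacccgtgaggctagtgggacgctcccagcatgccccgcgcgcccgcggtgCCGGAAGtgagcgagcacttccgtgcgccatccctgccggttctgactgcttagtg
Psmb5: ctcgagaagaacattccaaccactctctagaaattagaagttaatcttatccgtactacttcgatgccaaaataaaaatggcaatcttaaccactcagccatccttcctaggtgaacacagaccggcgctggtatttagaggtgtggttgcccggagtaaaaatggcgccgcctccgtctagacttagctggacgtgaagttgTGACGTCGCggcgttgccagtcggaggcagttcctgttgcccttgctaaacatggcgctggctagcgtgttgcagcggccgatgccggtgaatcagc
Psma2: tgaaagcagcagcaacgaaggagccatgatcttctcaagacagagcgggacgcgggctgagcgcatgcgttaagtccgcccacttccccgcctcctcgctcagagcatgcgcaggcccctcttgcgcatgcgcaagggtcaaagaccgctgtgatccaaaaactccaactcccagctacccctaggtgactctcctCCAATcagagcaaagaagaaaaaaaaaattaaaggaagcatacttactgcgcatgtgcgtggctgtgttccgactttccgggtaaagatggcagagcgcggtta
The capitals begin 26 bases before the annotated start in Psmd2, 11 before it in Psmd11 and 6 before it in Psmd13. They begin 47 bases before it in Psmb5 and 54 before it in Psma2.

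Promoters were found for 42 of the 50 members and searched on both strands, in overlapping matches, for 5 motifs. The 42 members had 45 promoters. A member was counted if any of its promoters matched, whereas the shares over all are of single promoters. The ETS letters CCGGAAG occurred in the promoters of 15 of the 42 members and in 8.86% of all 32851 promoters. They were in 9 of the 14 regulatory particle genes with a promoter, in 1 of the 11 core genes, Psma6, and in 5 of the other 17. In Psma6 they lay only in a further promoter inside the gene, whose window begins at chr12:55398575, and not in that at the gene's annotated start. CCAAT was found in 15 members, 6 of the 11 core and 4 of the 14 regulatory ones among them, and in 37.4% of all promoters. TGACNNNGC was found in 6 members (Psmb5, Psmb6, Psmc6, Psmd12, Psmd9 and Psme4) and in 12.4% of all promoters. The letters TATAAA were found in 4 members and in 13.6% of all promoters. The interferon-stimulated response element core was found in 5 members (Psmb3, Psmd4, Psmd9, Psme1 and Psmg4) and in 3.44% of all promoters. These are matches of letters in a fixed window, not sites of binding.

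Libraries held 241442 to 5185044 counts, with medians of 3286107, 730895, 1432395 and 1755429 in the order of the 4 times, and the proteasome genes 1063 to 20479 of them. Granulosa markers (7 genes) summed to medians of 28638, 22182, 19809 and 13272 CPM (counts scaled to library size by the TMM method) at 0, 1, 4 and 8 h, whereas 7 oocyte markers summed to medians of 10.6, 16.7, 11.7 and 19.7 CPM. Theca and stroma markers (6 genes) had medians of 348, 595, 139 and 83.0 CPM, and endothelial markers (6 genes) of 10.6, 34.8, 13.4 and 12.9 CPM, at the same times. Of 6 granulosa markers tested, 1 rose and 3 fell at 1 h, 5 fell at 4 h and all 6 fell at 8 h against 0 h, with median log2 fold changes of −0.88, −3.44 and −2.70, larger than those of the sum. Of 6 theca and stroma markers tested, none was called at 1 h, 1 fell at 4 h and 3 fell at 8 h against 0 h. The part of these shifts in the results was not tested. In such whole-follicle libraries, fewer cells of a type and less RNA per cell cannot be told apart. A further 3332 genes had counts in batch 1 but none in batch 2 after hCG. All genes without counts in batch 2 after hCG, whether counted in batch 1 or not, held 22.6 to 46.2% of the counts at 0 h. Levels in the authors' TPM, which sum to the same total in every library, are therefore lowered by them at 0 h. This does not carry over to the TMM-scaled fits. Leaving these genes out moved the median log2 fold change over all genes from −0.19 to −0.12 at 1 h against 0 h. At 4 h against 0 h it moved from −0.12 to 0.02.

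On the length-corrected scale of the authors' TPM, the alpha subunit Psma3 was the most abundant member at every time, with medians of 685, 764, 1375 and 1224 TPM at 0, 1, 4 and 8 h. At 8 h the next 3 were core subunits too, Psmb6 with 640 TPM, Psma7 with 519 TPM and Psmb1 with 371 TPM. The most abundant regulatory subunits at 4 h and 8 h were Psmd11, of the lid of the regulatory particle, at 122, 171, 305 and 238 TPM and Psmd2 at 73.7, 103, 221 and 269 TPM over the 4 times, which placed them 5 and 7 among the 50 members at 4 h and 9 and 7 at 8 h. Psma8, Psme2b, Psmb9 and Psmb11 were the 4 least abundant at 8 h, with medians of 0, 0, 0 and 0.928 TPM. The 50 members summed to medians of 4960, 5182, 6911 and 7474 TPM, of which the value at 0 h became 7542 TPM when the genes absent from batch 2 after hCG were left out of the total. The order of 0 h among the times in this sum therefore depends on those genes.

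Of the 43 members tested, 38 differed over the 4 times in the joint test (edgeR, adjusted p under 0.05 over 8629 genes), against 79.8% of all genes. Among these 38, 14 had their highest fitted level at 0 h, 9 at 4 h and 15 at 8 h, and none had it at 1 h. The 15 included the catalytic subunits Psmb5, Psmb6 and Psmb7, and the 9 included Psmd11 and the activator Psme3. Psma6, Psma7, Psmb8, Psmc6 and Psmd8 did not pass the joint test.

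**Figure D1:**
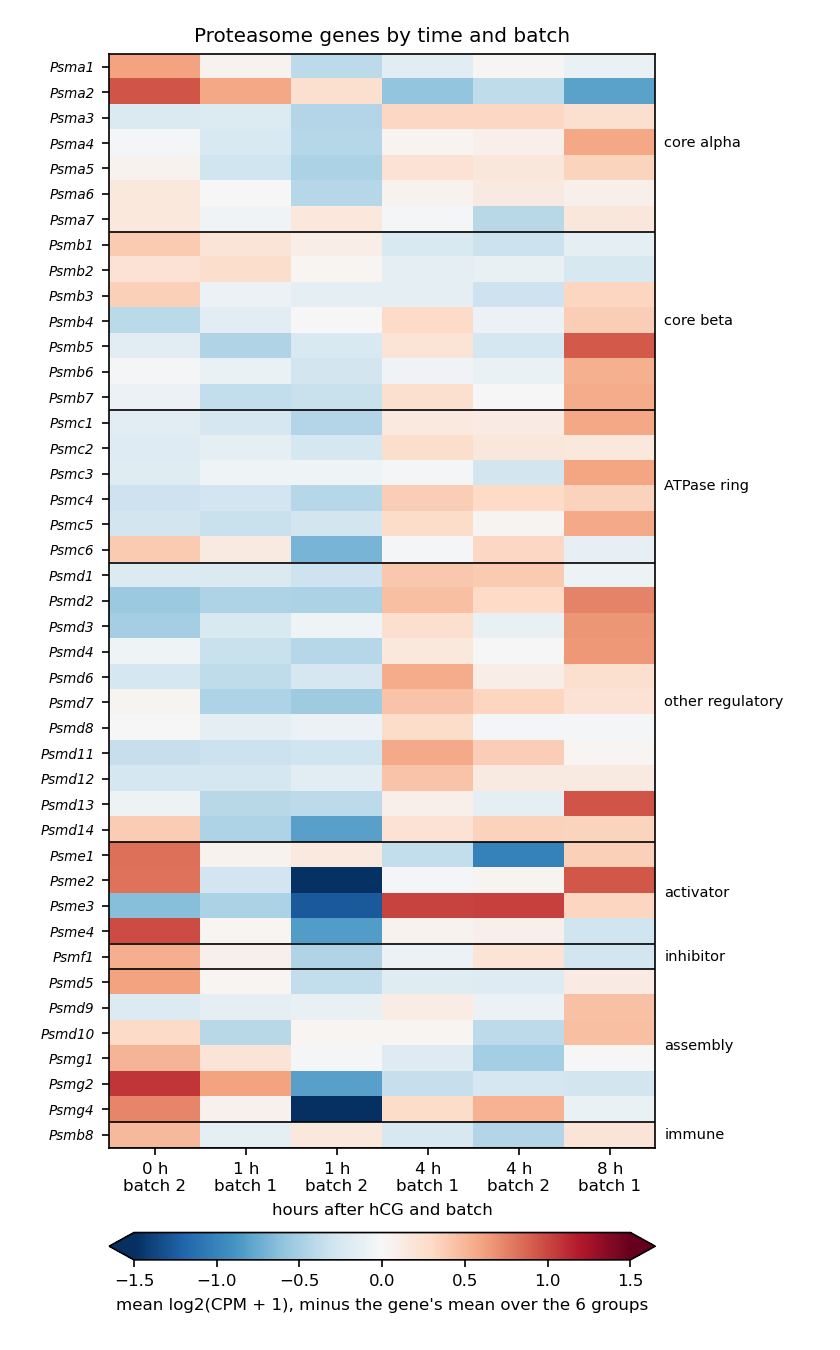
Mean log2(CPM + 1) of the 43 tested members in the 6 groups of time and batch, minus the mean of the gene over the groups, with members ordered by role. Colours saturate at the ends of the scale; most regulatory subunits are low at 0 h and 1 h and high at 4 h and 8 h, and the alpha subunit Psma2 runs the other way.

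The balance between the caps and the barrel could be read within each library, where scaling between libraries plays no role. The TPM of the 17 regulatory subunits divided by that of the 14 core subunits lay at 0.339 to 0.390 (median 0.371) at 0 h, 0.334 to 0.451 (median 0.375) at 1 h, 0.467 to 0.655 (median 0.532) at 4 h and 0.472 to 0.545 (median 0.502) at 8 h. No follicle at 4 h or 8 h was as low as any follicle at 0 h or 1 h. In batch 2 alone the 3 follicles at 4 h had ratios of 0.532, 0.552 and 0.467, against 0.406, 0.430 and 0.364 in the 3 at 1 h. Without Psma2, the core subunit that fell most, the ratios were 0.376 to 0.435, 0.366 to 0.484, 0.486 to 0.677 and 0.486 to 0.560 at 0, 1, 4 and 8 h, still without overlap. This ratio is a description and was given no test.

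**Figure D2:**
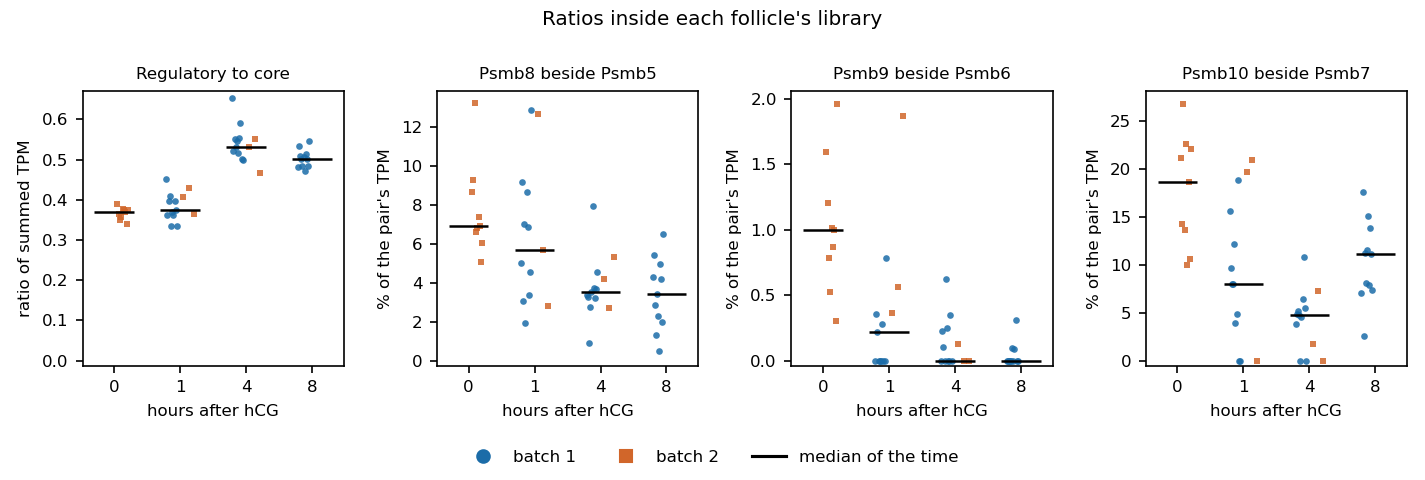
Values inside single libraries by hours after hCG, with each follicle as a point and the batches marked: the regulatory to core ratio of TPM, and the share in percent of each immune subunit in the TPM of itself and the subunit it replaces. The ratio is 0.467 or more in every follicle at 4 h and 8 h and 0.451 or less in every follicle at 0 h and 1 h.

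The comparison of 8 h with 1 h asks how the complex stood late in the course relative to its first hour, and in batch 1 it is made within 1 plate. At 8 h 22 of the 43 members rose and 4 fell, against 23.2% of all genes higher and 25.9% lower. The median log2 fold change was 0.47 over the members and −0.02 over all genes. In batch 1 alone 25 of 43 rose and 6 fell, with 29.0% of all genes higher and 25.1% lower. The regulatory particle contributed 12 rises of 17 and no fall; at an unadjusted p under 0.05 these were 14 and 0, and DESeq2 also called 14 and 0, while batch 1 alone called 14 and 1, the fall being that of Psmc6 (−0.20, adjusted p = 0.0477). Its median log2 fold change was 0.63, against 0.41 for the 14 core subunits, of which 8 rose and 3 fell.

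Psmd13, a structural subunit of the lid (ENSMUSG00000025487.15, chr7:140881968-140898643, plus strand, GRCm38), had the largest rise. It stood at 74.6, 101 and 130 CPM (lowest, median, highest) in the 11 follicles at 8 h, against 22.2, 39.2 and 57.1 CPM in the 13 at 1 h. No value at 8 h reached down to those at 1 h, and the log2 fold change was 1.35 ± 0.15 (SE; adjusted p = 1.67e-10). In batch 1 alone it was 1.44 ± 0.14. Sirt3 overlaps Psmd13 on the opposite strand, and the libraries do not mark strand, so reads of the 2 genes in the overlap cannot be told apart.

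Psmb5, the chymotrypsin-like catalytic subunit (ENSMUSG00000022193.7, chr14:54614119-54618022, minus strand), had 133, 167 and 219 CPM at 8 h, against 39.2, 61.6 and 102 CPM at 1 h. The ranges did not overlap, and Psmb5 rose by a log2 fold change of 1.26 ± 0.17 (adjusted p = 1.75e-08). The other catalytic subunits rose less far. Psmb7, the trypsin-like one, had 51.3, 59.0 and 77.9 CPM at 8 h, against 21.0, 29.5 and 57.1 CPM at 1 h (0.88 ± 0.16, adjusted p = 7e-06), and only the highest follicle at 1 h entered the range of 8 h. Psmb6, the caspase-like one, had 322, 355 and 412 CPM at 8 h, against 166, 234 and 276 CPM at 1 h (0.64 ± 0.11, adjusted p = 2.67e-06), with no overlap. Nek6 overlaps Psmb7.

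Among the subunits that handle ubiquitin, Psmd2, a receptor for ubiquitin and its shuttles (ENSMUSG00000006998.16, chr16:20651652-20663414, plus strand), had 470, 528 and 602 CPM at 8 h, against 178, 233 and 311 CPM at 1 h. Every follicle at 8 h was above every follicle at 1 h, and the log2 fold change was 1.17 ± 0.14 (adjusted p = 1.74e-09). Psmd4, a further ubiquitin receptor, had 151, 165 and 215 CPM at 8 h, against 57.3, 84.8 and 113 CPM at 1 h, again without overlap (0.97 ± 0.11, adjusted p = 4.75e-10). Psmd14, the deubiquitinase that releases chains from the substrate, had 75.3, 92.6 and 116 CPM at 8 h, against 29.3, 51.6 and 76.5 CPM at 1 h (0.83 ± 0.15, adjusted p = 6.35e-06), with slight overlap.

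The 4 members that fell at 8 h against 1 h were Psma2, Psmg2, Psmb2 and Psmb1. Psma2, an alpha ring subunit (ENSMUSG00000015671.11, chr13:14613240-14674236, plus strand), had 183, 228 and 317 CPM at 8 h, against 392, 604 and 992 CPM at 1 h. No follicle at 8 h reached the lowest at 1 h, and the log2 fold change was −1.36 ± 0.16 (adjusted p = 7.65e-10), the same in batch 1 alone. The annotated Psma2 gene shares its strand with AW209491, so reads of the shared stretch could belong to either. Psmb2 had −0.52 ± 0.14 (adjusted p = 0.00193) and Psmb1 −0.34 ± 0.12 (adjusted p = 0.013), both structural beta subunits, and Psmg2, a chaperone of the alpha ring, −0.80 ± 0.28 (adjusted p = 0.0147).

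**Figure D3:**
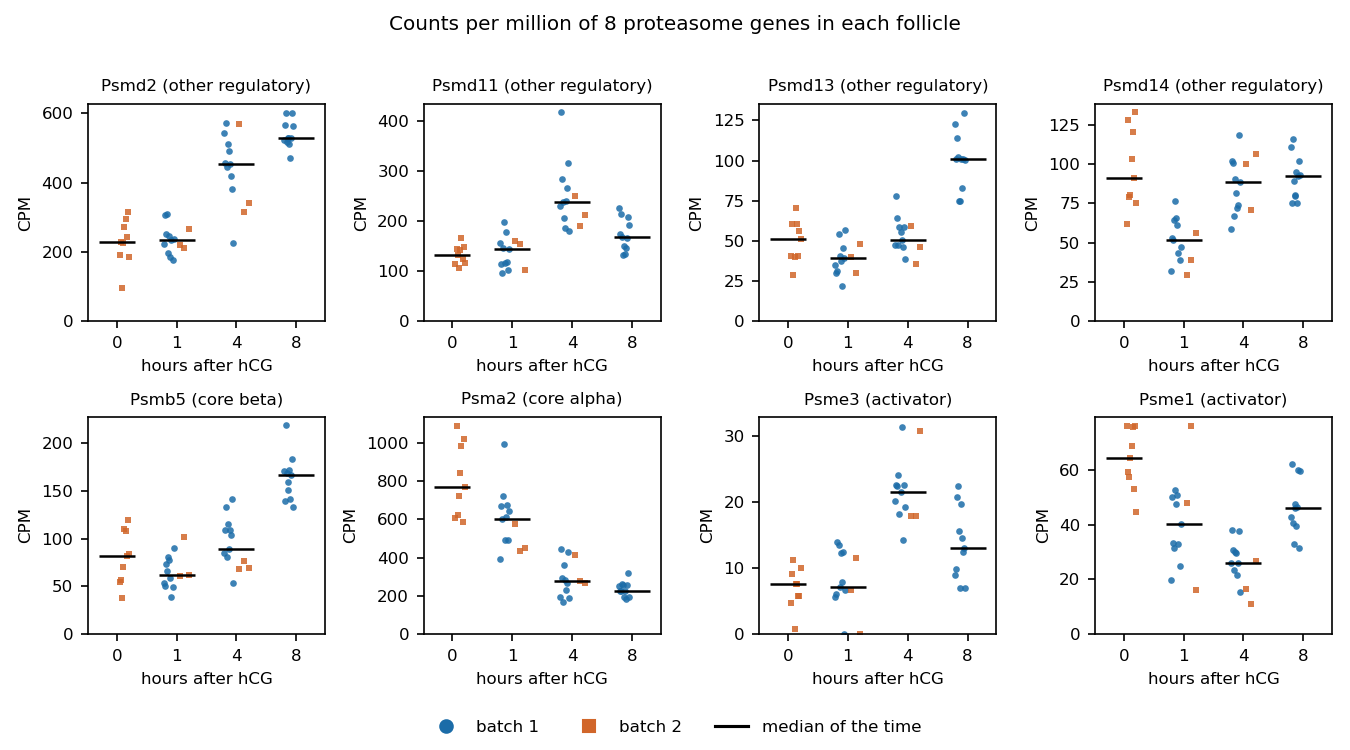
CPM of 8 members in every follicle by hours after hCG, with batches marked and a line at the group median. Psmd2, Psmd13 and Psmb5 are highest at 8 h, Psmd11 and Psme3 at 4 h, Psma2 at 0 h, and Psmd14 is lowest at 1 h.

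The step to 4 h asks which members changed by the middle of the course, and its rises were mostly in the regulatory particle. At 4 h against 1 h, 21 of 43 members rose and 5 fell, against 26% of all genes higher and 28.9% lower, and the median log2 fold change was 0.33 over the members and −0.06 over all genes. In the regulatory particle 15 of 17 rose and none fell, including all 11 subunits outside the ATPase ring; the counts at an unadjusted p under 0.05 and by DESeq2 were also 15 and 0. Of the 14 core subunits 5 rose and 3 fell, and the medians were 0.58 for the regulatory particle and 0.12 for the core. In the ATPase ring Psmc3 and Psmc6 did not pass, with log2 fold changes of 0.00 ± 0.12 and 0.07 ± 0.13.

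Psmd2 had 227, 453 and 573 CPM at 4 h, against 178, 233 and 311 CPM at 1 h, and 1 follicle at 4 h lay within the range of 1 h (0.90 ± 0.13, adjusted p = 1.34e-07). In batch 2 its values were 570, 315 and 341 CPM at 4 h, against 220, 213 and 265 CPM at 1 h, without overlap. Psmd11 (ENSMUSG00000017428.16, chr11:80428615-80473248, plus strand) had 181, 239 and 418 CPM at 4 h, against 96.1, 144 and 198 CPM at 1 h, with slight overlap (0.85 ± 0.13, adjusted p = 1.86e-07). In batch 2 it had 251, 190 and 213 CPM at 4 h, against 160, 155 and 102 CPM at 1 h, all 3 higher at 4 h.

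Psmd7, the inactive partner of the deubiquitinase, had 162, 188 and 244 CPM at 4 h, against 71.2, 95.3 and 167 CPM at 1 h (0.84 ± 0.12, adjusted p = 2.53e-08). Psmd14 had 59.0, 88.5 and 118 CPM at 4 h, against 51.6 CPM at the median and 76.5 CPM at most at 1 h (0.78 ± 0.14, adjusted p = 6.15e-06). In batch 2 Psmd14 had 100, 70.9 and 106 CPM at 4 h, against 29.3, 39.3 and 56.3 CPM at 1 h. This deubiquitinase and its partner were the 2 members called in batch 2 alone, at 1.19 ± 0.34 for Psmd14 (adjusted p = 0.036) and 0.89 ± 0.25 for Psmd7 (adjusted p = 0.0345).

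Of the core subunits Psmb7 (0.57 ± 0.15), Psma3 (0.56 ± 0.11), Psma5 (0.54 ± 0.11), Psmb5 (0.52 ± 0.16) and Psmb4 (0.35 ± 0.12) rose at 4 h against 1 h. Psmb6, at 0.08 ± 0.10 (adjusted p = 0.546), was not called. Psma2 (−1.01 ± 0.15), Psmb1 (−0.41 ± 0.11) and Psmb2 (−0.34 ± 0.13) fell. A term for the plate, on which the times differ in batch 1, leaves this step to the 3 follicles a time of batch 2. It ended all 3 calls, at −0.61 for Psma2, −0.43 for Psmb1 and −0.15 for Psmb2 (adjusted p = 0.141, 0.169 and 0.745). Batch 2 alone called no core subunit. Psma2 had 167, 278 and 443 CPM at 4 h, against 392, 604 and 992 CPM at 1 h, and in batch 2 415, 278 and 267 CPM at 4 h, against 576, 434 and 450 CPM at 1 h.

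The 4 h follicles of batch 1 are all on the second plate, so within that batch plate and time cannot be told apart; batch 1 alone called 21 members higher and 4 lower (30.0% and 26.9% of all genes). Batch 2 alone, with 3 follicles a time, called 2, both higher (6.15% of all genes higher and 5.88% lower), and with a term for the plate 8 rose and 1 fell. These rises were of Psma3, Psma5, Psmc4, Psmc6, Psmd2, Psmd7, Psmd14 and Psme3, and the fall was of Psme1. In batch 2 alone 15 of the 17 regulatory subunits had a positive log2 fold change, with a median of 0.44. The direction of 4 called genes turned with the plate term: Psmb4 to −0.02, Psmb5 to −0.065, Psmd3 to −0.060 and Psmg2, lower at 4 h in the fit of all follicles, to 0.13. In batch 2 alone Psmb5, Psmd3 and Psmg2 were at −0.035, −0.036 and 0.12. No plate of batch 1 holds both 1 h and 4 h, so with the plate term this step rests on the batch 2 follicles. The plate term and batch 2 alone are therefore not separate checks. For 8 h against 4 h the plate term links the times only through the 1 h follicles of both batches. Psmg2 also lost its call at 4 h against 1 h without 1 h replicate 12 (−0.57, adjusted p = 0.0776) or 4 h replicate 11 (−0.56, adjusted p = 0.07), and without the _ds follicles Psmg2 and Psmb2 were not called (−0.59 and −0.29, adjusted p = 0.0747 and 0.0667).

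**Figure D4:**
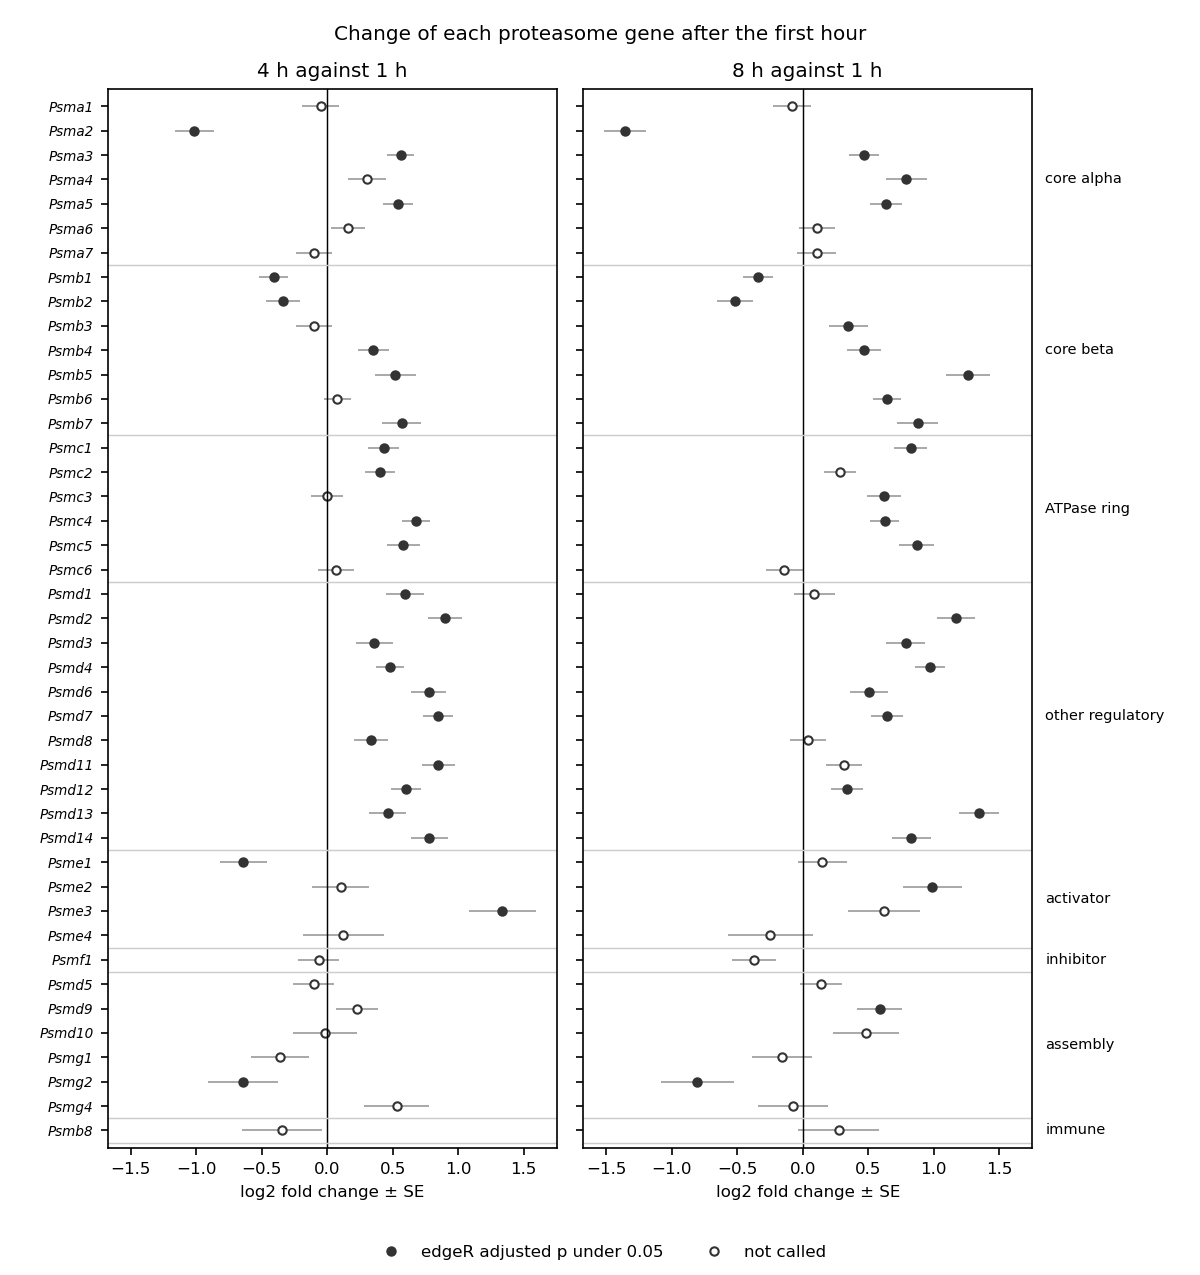
Log2 fold changes with their SE of the 43 tested members for 4 h against 1 h and 8 h against 1 h, ordered by role; filled points passed an adjusted p of 0.05. At 4 h 15 of 17 regulatory subunits rose and at 8 h 12, while Psma2 fell in both.

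The last step asks what changed after 4 h, and its rises included 2 of the catalytic subunits. At 8 h against 4 h 12 of 43 members rose and 4 fell, against 19.8% and 21.6% of all genes, with medians of 0.10 over the members and 0.00 over all genes. In batch 1 alone 13 rose and 7 fell (23.8% and 24.8% of all genes), and with the plate term 5 rose (Psmb5, Psmc3, Psmd3, Psmd13 and Psme1) and 2 fell (Psmc6 and Psmf1). Of the core 4 rose and none fell; at an unadjusted p under 0.05 these were 5 and 1, and DESeq2 called 5 and 0. They were Psmb5 (0.74 ± 0.16, adjusted p = 0.00016), Psmb6 (0.57 ± 0.11, adjusted p = 3.56e-05), Psma4 (0.49 ± 0.15) and Psmb3 (0.45 ± 0.14). With the plate term Psmb5 was the only one of these 4 still called, and Psmb6 was at 0.42 (adjusted p = 0.24). Psmb5 had 133, 167 and 219 CPM at 8 h, against 53.9, 89.5 and 141 CPM at 4 h, with slight overlap. Psmb6 had 322, 355 and 412 CPM at 8 h, against 167, 242 and 295 CPM at 4 h, without overlap.

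The regulatory particle divided at 8 h against 4 h, with 5 rises and 2 falls among 17. Psmd13 rose again, at 74.6, 101 and 130 CPM at 8 h, against 35.8, 50.3 and 78.2 CPM at 4 h (0.88 ± 0.14, adjusted p = 1.33e-06), and only the highest follicle at 4 h entered the range of 8 h. The ATPase Psmc3 (0.62 ± 0.13) rose too, as did Psmd4 (0.49 ± 0.11), Psmd3 (0.43 ± 0.15) and Psmc1 (0.39 ± 0.12). Slc39a13 overlaps Psmc3. Psmd11 fell, at 133, 169 and 226 CPM at 8 h, against 181, 239 and 418 CPM at 4 h (−0.53 ± 0.13, adjusted p = 0.0011), as did Psmd1, a large scaffold of the base (−0.51 ± 0.16, adjusted p = 0.00701). The plate term ended both calls (adjusted p = 0.544 and 0.202), those of Psmc1 and Psmd4, and in the other classes those of Psme2, Psme3, Psmd9 and Psmg4. Psmd2, at 0.27 ± 0.14 (adjusted p = 0.117), did not pass in the fit of all follicles and passed without 4 h replicate 11 (0.33, adjusted p = 0.0467).

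The comparison of 1 h with 0 h asks what changed in the first hour, before the later rises. At 1 h against 0 h no member rose and 13 of 43 fell, against 12.4% of all genes higher and 22.2% lower. At an unadjusted p under 0.05 none rose and 18 fell, and DESeq2 called 0 and 14. The median log2 fold change was −0.33 over the members and −0.19 over all genes. With every library thinned to the smallest, no member was called and the median turned to 0.21 over the 34 members then tested, against 0.16 over all genes. By role, 4 of 17 regulatory subunits fell, 3 of 14 core subunits, 3 of 4 activators and 3 of 6 assembly factors tested.

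Psmd14 had 29.3, 51.6 and 76.5 CPM at 1 h, against 61.6, 90.9 and 133 CPM at 0 h. In batch 2, which holds all follicles at 0 h, the 3 values at 1 h were 29.3, 39.3 and 56.3 CPM, each below the lowest at 0 h, and the log2 fold change was −1.01 ± 0.20 (adjusted p = 0.000146) over all follicles and −1.18 ± 0.30 in batch 2 alone (adjusted p = 0.0147). Psmd7 fell by 0.58 ± 0.17 (adjusted p = 0.00594) and Psma1, an alpha subunit, by 0.76 ± 0.20 (adjusted p = 0.00335). Psmd4 fell by 0.41 ± 0.15, a call lost without 1 h replicate 11 (−0.20, adjusted p = 0.35), 1 h replicate 12 (−0.33, adjusted p = 0.12) or 4 h replicate 11 (−0.28, adjusted p = 0.176). Batch 2 alone called 5 members at 1 h, all lower (7.47% of all genes higher and 10.7% lower). They were Psma1, Psmd14, Psmf1, Psmg3 and Psmc3ip. Psmg3, without counts in batch 2 at 1 h, and Psmc3ip, which matched by name only, were not tested over all follicles. Of the falls called over all follicles, 11 lost their call in batch 2 alone. The 11 were Psma5, Psmb3, Psmc6, Psmd4, Psmd5, Psmd7, Psme1, Psme2, Psme4, Psmg2 and Psmg4, and Psmf1 gained a call. Without the 0 h follicles marked _ds 1 was higher, Psmd3 (0.65, adjusted p = 0.0435), and 3 were lower, with a median of −0.12 over the members. The falls that then lost their call were those of Psma5, Psmb3, Psmc6, Psmd4 (−0.07, adjusted p = 0.799), Psmd5, Psmd7 (−0.41, adjusted p = 0.139), Psme1, Psme2, Psmg2 and Psmg4, and without 1 h replicate 11 or 12 there were 7 calls in either case.

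At 4 h against 0 h 11 members rose and 13 fell, against 21.9% and 32.2% of all genes. The rises were mainly in the regulatory particle, with 8 higher and 1 lower of 17 (median 0.32), while the core had 2 higher and 4 lower of 14 (median −0.15). The median over all members was −0.01, against −0.12 over all genes; without the genes absent from batch 2 after hCG these became 0.17 and 0.02, so the direction of the members' median depended on those genes. It was 0.24 without the _ds follicles, where the calls of Psmb1, Psmb3, Psmc6, Psme2, Psmf1 and Psmg1 were lost and Psmb5 and Psmd4 (0.46) became higher. Batch 2 alone called 6 higher and 6 lower (13.7% and 19.7% of all genes). The 6 lower included Psmg3 and Psmc3ip, neither of which was tested over all follicles. In batch 2 alone 16 calls made over all follicles were lost. The falls lost were those of Psma1, Psmb1, Psmb3, Psmc6, Psmd5, Psmd10, Psme2, Psme4, Psmf1, Psmg1 and Psmg2. The rises lost were those of Psmb4, Psmc5, Psmd3, Psmd6 and Psmd12, and Psmb8 gained a call as lower.

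Psmd2 had 227, 453 and 573 CPM at 4 h, against 95.3, 230 and 315 CPM at 0 h, and rose by 0.88 ± 0.19 (adjusted p = 8.35e-05). Psmd11 had 181, 239 and 418 CPM at 4 h, against 106, 133 and 166 CPM at 0 h, without overlap, and rose by 0.81 ± 0.18 (adjusted p = 0.000139). In batch 2 alone the changes were 0.92 for Psmd2 and 0.79 for Psmd11. The ATPase Psmc4 rose by 0.58 ± 0.15 (adjusted p = 0.000754), and Psmd3 by 0.53 ± 0.20 (adjusted p = 0.023), a call lost without 1 h replicate 13 (0.44, adjusted p = 0.0628). Psma2 had 167, 278 and 443 CPM at 4 h, against 586, 772 and 1090.5 CPM at 0 h, without overlap, and fell by 1.52 ± 0.22 (adjusted p = 6.96e-08), by 1.25 in batch 2 alone. Psma1 (−0.81 ± 0.19), Psmb1 (−0.74 ± 0.16) and Psmb3 (−0.65 ± 0.20) fell too, and the catalytic Psmb5 (0.12 ± 0.22), Psmb6 (−0.13 ± 0.14) and Psmb7 (0.15 ± 0.20) did not pass; without the _ds follicles Psmb5 passed at 0.78 (adjusted p = 0.00981).

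At 8 h against 0 h 12 members rose and 10 fell, against 17.5% and 27.6% of all genes, with medians of 0.07 and −0.15; without the genes absent from batch 2 after hCG 16 rose and 8 fell. No batch holds both times, so this comparison rests on the batch term that the 1 h and 4 h follicles supply. Psmd2 had 470, 528 and 602 CPM at 8 h, against 95.3, 230 and 315 CPM at 0 h (1.15 ± 0.21, adjusted p = 1.83e-05). Psmd3, of the lid, had 140, 154 and 177 CPM at 8 h, against 34.3, 75.4 and 108 CPM at 0 h (0.96 ± 0.23, adjusted p = 0.000564). Psmd13 had 74.6, 101 and 130 CPM at 8 h, against 28.9, 50.9 and 70.4 CPM at 0 h (0.89 ± 0.22, adjusted p = 0.00102). For these 3 every follicle at 8 h was above every follicle at 0 h.

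Of the catalytic subunits Psmb5 rose at 8 h against 0 h, with 133, 167 and 219 CPM at 8 h, against 37.5, 82.4 and 119 CPM at 0 h (0.86 ± 0.25, adjusted p = 0.00448). Psmb6 rose by 0.44 ± 0.17 (adjusted p = 0.0286; 0.40 and 0.0553 without 4 h replicate 13), and Psmb7, at 0.46 ± 0.23 (adjusted p = 0.0996), did not pass. Psmb7 passed without 1 h replicate 11 (0.70, adjusted p = 0.0145), without 4 h replicate 11 (0.58, adjusted p = 0.0485) and without the _ds follicles (0.78, adjusted p = 0.0151), and Psmb6 lost its call with the plate term. Psma2 had 183, 228 and 317 CPM at 8 h, against 586, 772 and 1090.5 CPM at 0 h, without overlap (−1.86 ± 0.25, adjusted p = 3.15e-08). Psma1 (−0.84 ± 0.23), Psmb1 (−0.67 ± 0.18) and Psmb2 (−0.59 ± 0.22) fell as well; Psmb2 lost its call without 1 h replicate 11 (−0.31, adjusted p = 0.236) or 1 h replicate 12 (−0.42, adjusted p = 0.116). Without the _ds follicles the calls of Psmb1 (−0.31, adjusted p = 0.203), Psmb2 (−0.44, adjusted p = 0.169), Psmd5, Psmd9, Psmf1 and Psmg4 were lost, and Psma3 (0.57), Psma4 (0.74) and Psmb7 became higher. With libraries thinned to the smallest, Psmb1 turned to 0.11 and was not called.

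The activators did not move together. Psme3, which forms a cap found mainly in the nucleus (ENSMUSG00000078652.9, chr11:101316213-101323537, plus strand), had 14.2, 21.5 and 31.3 CPM at 4 h, against 0, 7.17 and 14.0 CPM at 1 h and 0.75, 7.54 and 11.2 CPM at 0 h. Every follicle at 4 h was above every follicle at 1 h and at 0 h, in batch 2 at 17.8, 17.9 and 30.7 CPM at 4 h, against 6.66, 11.5 and 0 CPM at 1 h. The log2 fold changes were 1.53 ± 0.33 against 0 h (adjusted p = 0.000109) and 1.34 ± 0.26 against 1 h (adjusted p = 2.07e-05). At 8 h Psme3 had 6.95, 13.0 and 22.3 CPM and fell against 4 h by 0.72 ± 0.24 (adjusted p = 0.0125). Its excess at 8 h, of 0.81 ± 0.39 over 0 h and 0.62 ± 0.28 over 1 h, missed the threshold (adjusted p = 0.0861 and 0.0592) and passed it over 0 h without 1 h replicate 11 (0.99), 1 h replicate 13 (0.93) or 4 h replicate 11 (1.01), and over 1 h without 1 h replicate 11 (0.66), 1 h replicate 12 (0.72) or 4 h replicate 11 (0.70).

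Psme1 and Psme2, which form together an activator that interferon induces, were lower at 4 h than at 0 h (for Psme2, −0.88 ± 0.30, adjusted p = 0.0115). Psme1 had 10.9, 26.2 and 38.0 CPM at 4 h, against 44.7, 64.5 and 76.2 CPM at 0 h, without overlap (−1.44 ± 0.26, adjusted p = 6.26e-06). Batch 2 alone gave −1.75 for Psme1, and its follicles at 4 h had 16.6, 10.9 and 26.6 CPM. At 8 h Psme1 had 31.5, 46.0 and 62.0 CPM and rose against 4 h by 0.79 ± 0.18 (adjusted p = 0.00029). Emc9 overlaps Psme1.

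Psme2 had 42.9, 63.1 and 84.8 CPM at 8 h, against 17.2, 32.1 and 41.9 CPM at 4 h, without overlap, and rose by 0.89 ± 0.22 (adjusted p = 0.000784). Against 1 h, where it had 0, 32.2 and 53.5 CPM, Psme2 rose at 8 h by 0.99 ± 0.23 (adjusted p = 0.000286). At 1 h against 0 h Psme1 fell by 0.80 ± 0.25 (adjusted p = 0.0102) and Psme2 by 0.98 ± 0.31 (adjusted p = 0.0125); the first lost its call without 4 h replicate 11 (−0.63, adjusted p = 0.0524) and the second without 1 h replicate 12 (−0.64, adjusted p = 0.0641). Psme2b, the copy of Psme2, had 0 counts in all 9 libraries at 0 h, which allows up to 0.101 CPM, and 11, 10 and 22 counts in all at 1, 4 and 8 h, and counts can be split between such copies. Psme1 fell at 4 h against 1 h as well (−0.64 ± 0.18, adjusted p = 0.00211). Neither batch alone called this fall, nor did the thinned libraries, while the plate term kept the call.

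Psme4, a single-chain nuclear activator, fell at every later time against 0 h in the fit of all follicles. Batch 2 alone, which holds all follicles at 0 h, called it neither at 1 h nor at 4 h. Its 6 follicles after hCG held 39 counts of Psme4 together. The medians of Psme4 were 14.9, 6.06, 7.33 and 5.44 CPM at 0, 1, 4 and 8 h, and the ranges overlapped. The log2 fold changes against 0 h were −1.47 ± 0.42 at 1 h (adjusted p = 0.00578), −1.34 ± 0.38 at 4 h (adjusted p = 0.00264) and −1.71 ± 0.45 at 8 h (adjusted p = 0.00184). Psmf1, an inhibitor of the core particle in the test tube, had 8.69, 11.2 and 14.6 CPM at 8 h, against 15.3, 21.7 and 25.9 CPM at 0 h, without overlap (−0.93 ± 0.24, adjusted p = 0.00149). At 4 h against 0 h Psmf1 fell by 0.62 ± 0.20 (adjusted p = 0.00869; −0.43 and 0.0691 without 1 h replicate 11), and without the _ds follicles it lost its calls at 4 h (−0.24, adjusted p = 0.564) and at 8 h (−0.54, adjusted p = 0.114). At 1 h Psmf1 had −0.56 ± 0.22 (adjusted p = 0.0549), which passed without 4 h replicate 12 (−0.66, adjusted p = 0.0285), and at 8 h against 1 h −0.37 ± 0.17 (adjusted p = 0.0596), which passed without 1 h replicate 13 (−0.39, adjusted p = 0.048) or 4 h replicate 12 (−0.40, adjusted p = 0.0434).

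Of the 6 assembly factors tested, 3 fell at 1 h, 4 fell at 4 h, and 1 rose and 3 fell at 8 h against 0 h, against 12.4% of all genes higher and 22.2% lower at 1 h, 21.9% and 32.2% at 4 h, and 17.5% and 27.6% at 8 h. Psmg2, which pairs with Psmg1 to build the alpha ring, had 5.57, 8.35 and 13.2 CPM at 8 h, against 14.2, 23.1 and 36.1 CPM at 0 h, without overlap (−1.73 ± 0.41, adjusted p = 0.000577). At 4 h against 0 h Psmg2 had −1.57 ± 0.35 (adjusted p = 0.000186). At 1 h its −0.93 ± 0.38 (adjusted p = 0.0489) lost the call without any of 1 h replicates 11 (−0.45), 12 (−0.97) and 13 (−0.96) or 4 h replicate 11 (−0.70).

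Psmg1 had −0.94 ± 0.29 at 4 h against 0 h (adjusted p = 0.00598; −0.57 and 0.105 without 4 h replicate 11). Its −0.73 ± 0.34 at 8 h (adjusted p = 0.072) passed without 4 h replicate 12 (−1.08) or 1 h replicate 13 (−0.83), and its −0.58 ± 0.31 at 1 h without 4 h replicate 12 (−0.86). Psmg4, which acts with Psmg3, had −1.07 ± 0.35 at 1 h (adjusted p = 0.0141; −0.78 and 0.0655 without 1 h replicate 12) and −1.14 ± 0.37 at 8 h (adjusted p = 0.0104) against 0 h, and −0.61 ± 0.24 at 8 h against 4 h (adjusted p = 0.0346). At 4 h against 1 h Psmg4 had 0.53 ± 0.25 (adjusted p = 0.0663), and without 1 h replicate 11 it passed at 0.62 (adjusted p = 0.0386).

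Psmd5, Psmd9 and Psmd10 are chaperones of the base of the regulatory particle. Psmd5 fell by 0.77 ± 0.22 at 1 h (adjusted p = 0.00491) and by 0.88 ± 0.21 at 4 h (adjusted p = 0.000376) against 0 h. Its −0.63 ± 0.24 at 8 h (adjusted p = 0.0277) lost the call without 1 h replicate 11 (−0.48), 1 h replicate 12 (−0.37) or 4 h replicate 11 (−0.35). Psmd9 rose at 8 h, with 14.4, 21.6 and 32.9 CPM at 8 h, against 7.0, 14.2 and 20.2 CPM at 1 h (0.59 ± 0.17, adjusted p = 0.00336), and its 0.36 ± 0.15 against 4 h lost the call without 4 h replicate 12 (0.35, adjusted p = 0.0588) or 4 h replicate 13 (0.35, adjusted p = 0.0592). Psmd10 fell at 4 h against 0 h (−0.78 ± 0.33, adjusted p = 0.0397), a call lost without 1 h replicate 11 (−0.69), 1 h replicate 12 (−0.68), 4 h replicate 11 (−0.54) or 4 h replicate 13 (−0.65). Cutal overlaps Psmd5, and Hpd overlaps Psmd9. Without the _ds follicles the call of Psmd9 at 8 h against 4 h was lost too (adjusted p = 0.0547).

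The immune subunits were scarce at every time. Psmb8, which replaces Psmb5, had 7.5, 8.8 and 12.9 CPM at 0 h, 2.06, 6.52 and 20.2 at 1 h, 1.87, 5.24 and 11.6 at 4 h and 1.31, 9.64 and 13.9 at 8 h, all overlapping. No comparison called Psmb8, and at 4 h against 0 h it had −0.77 ± 0.40 (adjusted p = 0.0987); batch 2 alone called it there (−1.0, adjusted p = 0.0405). Psmb9, which replaces Psmb6, had 91 counts in 9 of 9 libraries at 0 h, 8 in 7 of 13 at 1 h, 15 in 6 of 13 at 4 h and 7 in 3 of 11 at 8 h. Psmb10, which replaces Psmb7, had 124 counts in 9 of 9 libraries, 19 in 10 of 13, 38 in 10 of 13 and 105 in 11 of 11 at the same times. Both were too low for the test over all follicles, and these raw counts come from libraries of unlike depth. Batch 2 alone tested 2 of the 3 immune subunits at 4 h against 0 h and called both lower (19.7% of all genes), at −2.49 and, for Psmb8, −1.0. In the authors' deposited table Psmb9 and Psmb10 passed as lower at 4 h against 0 h (signed fold changes −6.44 and −3.43). At 8 h Psmb9 passed there (−12.3) and Psmb10 did not (−1.13).

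As shares of the TPM of each pair within a library, the immune forms stayed below their constitutive partners in every follicle. Psmb8 made up 5.04 to 13.2% of Psmb8 and Psmb5 at 0 h (median 6.90%), 1.92 to 12.9% at 1 h (5.70%), 0.921 to 7.96% at 4 h (3.50%) and 0.505 to 6.51% at 8 h (3.42%). The median of Psmb10 in its pair was 18.7, 8.00, 4.79 and 11.1% over the 4 times, with 10.0 to 26.8% at 0 h and 0 to 10.8% at 4 h. Psmb9 made up 0.999% of its pair at the median at 0 h (0.305 to 1.96%) and 0.221, 0 and 0% at 1, 4 and 8 h. These medians and the pooled shares below join both batches at 1 h and 4 h, whereas all follicles at 0 h are in batch 2. In batch 2 the Psmb10 shares were 19.7, 21.0 and 0% at 1 h and 1.73, 7.30 and 0% at 4 h. Those of Psmb9 were 0.368, 0.565 and 1.87% at 1 h and 0.127, 0 and 0% at 4 h. Pooled over libraries, Psmb9 took 1.63% of the counts of its pair at 0 h (95% exact binomial interval 1.31 to 1.99%), 0.437% at 1 h (0.189 to 0.86%), 0.275% at 4 h (0.154 to 0.454%) and 0.0972% at 8 h (0.0391 to 0.20%); these intervals cover counting error only. Since Psmb5 and Psmb6 rose at 8 h, a share can fall without less of the immune form.

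Leukocytes carry immune subunits constitutively, and their 9 markers summed to 13.7 to 181 CPM at 0 h (median 24.1), 5.54 to 321 at 1 h (32.2), 0 to 73.1 at 4 h (9.60) and 0.695 to 64.0 at 8 h (9.29). Ptprc was at 0 in every library at 1 h and Cd52 in every library at 4 h and at 8 h, and the part of leukocytes in the immune subunits was not tested. Of 9 tested genes of interferon response and antigen presentation, 3 rose and 1 fell at 1 h, 3 rose and 2 fell at 4 h and 3 rose and 1 fell at 8 h against 0 h; the shares over all genes are those given for the assembly factors. The MHC class I chains H2-K1 (3.65 ± 0.52) and H2-D1 (4.55 ± 0.64) rose at 8 h against 0 h, as did their loading factor Tapbp (1.85 ± 0.30). H2-K1 had 1025 to 3636 CPM at 8 h (median 3014), against 85.1 to 396 CPM at 0 h (median 172), and class I chains are similar enough to share reads.

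The peptide transporter gene Tap1 fell at 4 h (−3.06 ± 0.55, adjusted p = 6.47e-06) and at 8 h (−2.02 ± 0.62) against 0 h. Tap1 lies beside and overlaps Psmb9 on the other strand, so their reads in the overlap cannot be told apart. The interferon-driven factor Irf1 fell at 4 h against 1 h (−1.08 ± 0.25), and B2m, the shared class I light chain, rose (0.76 ± 0.17).

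The 4 other members that were not tested over all follicles were low. Psmg3, an assembly factor, had 289 counts in 9 of 9 libraries at 0 h, 16 in 8 of 13 at 1 h, 80 in 13 of 13 at 4 h and 71 in 11 of 11 at 8 h. In the 3 libraries of batch 2 at 1 h it had none, which allows up to 1.94 CPM over their 1546568 counts. Psmc3ip had 267 counts in 9 of 9, 20 in 11 of 13, 40 in 11 of 13 and 36 in 10 of 11 libraries. Psma8 had 10, 5, 11 and 7 counts and Psmb11 17, 13, 25 and 53 counts over all libraries at 0, 1, 4 and 8 h. These are raw counts, not levels. The median library held 3286107, 730895, 1432395 and 1755429 counts at these times.

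Genes that act on the proteasome but carry other names were followed in lists. Of 6 tested genes for assembly and transcription of the complex, 2 fell at 1 h, 2 rose and 1 fell at 4 h, and 2 rose and 2 fell at 8 h against 0 h, where 12.4% of all genes were higher and 22.2% lower at 1 h, 21.9% and 32.2% at 4 h, and 17.5% and 27.6% at 8 h. Pomp, the chaperone that completes the core particle, had 29.6, 35.3 and 39.6 CPM at 0 h, 24.1, 40.2 and 58.7 at 1 h, 53.9, 89.7 and 116 at 4 h and 93.3, 102 and 120 at 8 h. The follicles at 4 h and 8 h did not overlap those at 0 h, and against 0 h Pomp rose by 1.24 ± 0.17 at 4 h (adjusted p = 2.25e-08) and by 1.44 ± 0.19 at 8 h (adjusted p = 2.96e-08). Nfe2l2, the stress factor that binds antioxidant response elements, rose by 0.69 ± 0.21 at 4 h and by 0.86 ± 0.24 at 8 h. Nfe2l1, the factor that drives proteasome genes when the complex is inhibited, passed in no comparison (−0.21 ± 0.20 at 1 h, −0.37 ± 0.20 at 4 h and −0.25 ± 0.23 at 8 h against 0 h). Ddi2, the protease that activates Nfe2l1, fell at 1 h (−1.02 ± 0.27) and the import factor Ipo9 fell at 1 h (−1.06 ± 0.28) and at 4 h (−1.14 ± 0.26), and Ngly1 fell at 8 h against 1 h (−0.86 ± 0.20).

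Of 8 tested partners and subunits with other names, 5 rose at 4 h against 0 h (21.9% of all genes), and 1 rose and 4 fell at 8 h against 4 h (19.8% and 21.6%). Adrm1, a ubiquitin receptor (0.69 ± 0.23), the deubiquitinases Usp14 (0.60 ± 0.21) and Uchl5 (0.89 ± 0.20) and the ligase Ube3c (0.88 ± 0.25) rose at 4 h against 0 h. At 8 h against 4 h Adrm1 (−0.56 ± 0.17), Usp14 (−0.94 ± 0.16), Ube3c (−0.88 ± 0.19) and Txnl1 (−1.14 ± 0.15) fell. The 4 h and 8 h follicles of batch 1 lie on different plates, and these companion calls are given without the plate term. Companion calls at 4 h against 1 h share this limit. Sem1, a small subunit of the lid, rose at 8 h against 1 h (0.68 ± 0.14), and Fbxo7, which binds Psmf1, fell (−0.93 ± 0.35).

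Zfand5, a zinc-finger protein that stimulates the proteasome, had the largest change of the companion genes tested at 1 h. It had 47.8, 132 and 472 CPM at 1 h, against 5.87, 7.5 and 25.7 CPM at 0 h, without overlap, and rose by 4.02 ± 0.39 (adjusted p = 9.41e-12). At 4 h it had 25.8, 43.3 and 79.7 CPM and at 8 h 14.8, 31.3 and 43.9 CPM, with 2.08 ± 0.36 and 1.47 ± 0.43 against 0 h.

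Of 13 tested genes of ubiquitin supply and shuttling, 4 rose and 1 fell at 1 h (12.4% and 22.2% of all genes), 5 rose and 1 fell at 4 h (21.9% and 32.2%) and 6 rose and none fell at 8 h (17.5% and 27.6%) against 0 h. Among them, the stress-induced polyubiquitin gene Ubb (1.29 ± 0.24) and the shuttle Ubqln1 (1.57 ± 0.43) rose at 1 h. Genes for ubiquitin encode the same protein and can share reads. At 4 h Ubqln4 rose by 1.19 ± 0.25, and at 8 h Uba1, the main activating enzyme, by 0.73 ± 0.21 and Ufd1l by 0.74 ± 0.24. Rps27a fell (−0.39 ± 0.11) and Rad23b rose (0.67 ± 0.21) at 8 h against 1 h, and Vcp fell at 4 h against 1 h (−0.32 ± 0.13).

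**Figure D5:**
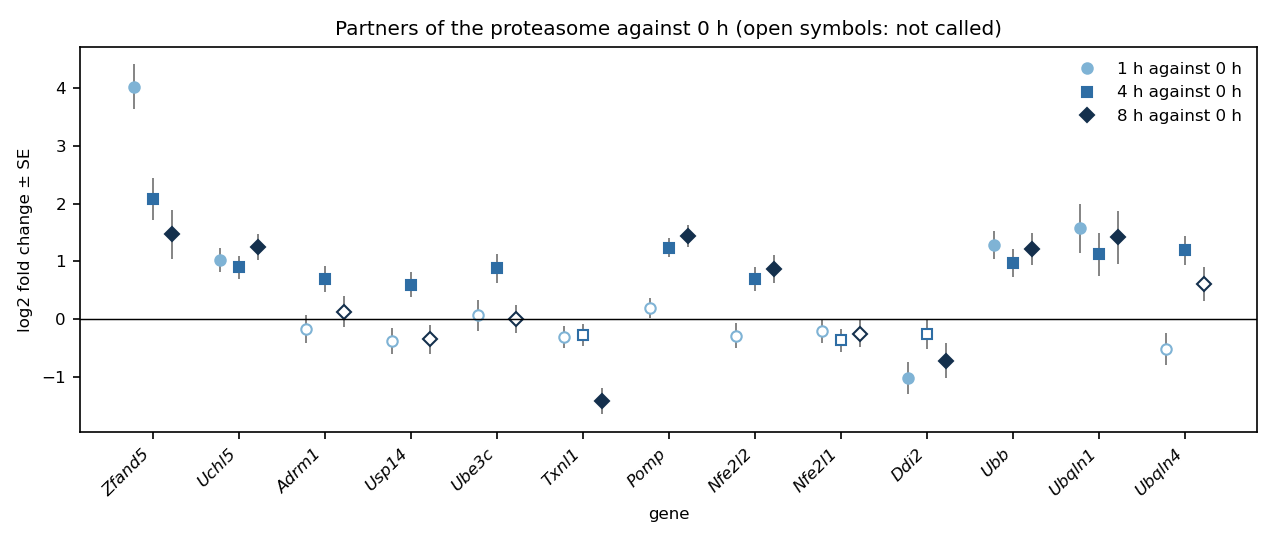
Log2 fold changes against 0 h, with their SE, of 13 genes that assemble, control, feed or accompany the proteasome; open points did not pass an adjusted p of 0.05. Zfand5 is highest at 1 h (4.02), Pomp rises at 4 h and 8 h, and Nfe2l1 is not called at any time.

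The step between 1 h and 4 h, the only one measured in both batches, differed between them for 1 of 41 members tested, Psmc6, an ATPase of the ring, against 5.09% of 5820 genes. In batch 2 Psmc6 had 156, 94.5 and 127 CPM at 4 h, against 49.3, 106 and 42.9 CPM at 1 h, and in batch 1 78.5 to 109 CPM at 4 h, against 86.5 to 152 CPM at 1 h. The step in batch 2 exceeded that in batch 1 by 1.07 ± 0.29 on the log2 scale (adjusted p = 0.0269). Psmc6 lost this call without 1 h replicate 11 (0.85, adjusted p = 0.0968), 1 h replicate 13 (0.87, adjusted p = 0.0958), 4 h replicate 11 (0.90, adjusted p = 0.0753) or 4 h replicate 13 (1.02, adjusted p = 0.0626). Without 1 h replicate 11 Psmd6 was called instead (−0.98, adjusted p = 0.042) and without 4 h replicate 11 Psmb4 (−0.89, adjusted p = 0.0447), both with a smaller step in batch 2.

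The spread between follicles of 1 group was smaller for proteasome genes than for most genes, at higher levels. The residual SD of log2 CPM had a median of 0.327 over the 43 members, against 0.583 over all genes tested, whose mean log2 CPM was lower (median 4.12, against 6.67 for the members), and what the level contributes to the spread was not tested. Psmb6 (0.226) and Psmd4 (0.233) varied least and Psme2 (0.852) and Psme3 (0.790) most. Because the labels tie no follicle to an animal, the p-values above rest on the variation from follicle to follicle.

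Set against 0 h, the authors' deposited table lists all 50 members, with 0 higher and 23 lower at 1 h, 13 and 20 at 4 h and 22 and 15 at 8 h at a step-up false discovery rate under 0.05. All 13, 24 and 22 members called here at 1, 4 and 8 h against 0 h have the same direction and pass in the authors' deposited table, which is made from the same libraries.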

How the data were processed

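Single follicles were profiled with Smart-Seq2, which copies polyadenylated RNA, and Nextera XT libraries that keep no strand. The submitters' processing notes name HISAT2, Partek and DESeq2 and the build GRCm38, without versions. The authors deposited a table of whole-number counts that its name says was adjusted between batches with ComBat-seq, with settings not given in the sources used here, and a table of TPM made from those counts. Per the file headers, the authors' deposited table of comparisons holds fold changes with a sign, treated as a score with no fixed range, and p-values with their step-up false discovery rates. In the count table, as in that of TPM, 10 columns belonged to none of the described follicles and were left out.

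Counts of 46 libraries (241442 to 5185044 in all) were fitted in edgeR 4.0.16 (R 4.3.3) by quasi-likelihood, with TMM scaling and genes kept by filterByExpr for the 4 times, with terms for time and batch, and p-values were adjusted by Benjamini-Hochberg over 8629 genes and called under 0.05. The SE is the log2 fold change divided by the square root of F; log2 CPM used a prior count of 2. On simulated counts of 8629 genes with 200 changed, 97.9% of 4-fold and 30.2% of 2-fold changes were recovered for 4 h against 0 h. DESeq2 1.42.0 and the other alternatives are given at the end. Binomial intervals are exact at 95%, and a count of 0 allows 3 counts. Python 3.11.15 with pandas 2.3.3 made the tables.

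The members and lists were chosen with earlier results of these data known. Always named were the catalytic, immune, activator, inhibitor, assembly and ubiquitin-handling members, with the 3 largest called changes in each direction and comparison above a mean log2 CPM of 3, and likewise for the lists of companion genes; other members were named after their values were seen, where a count was 5 or fewer. No table of proteins was used here. Some called genes of the companion lists are counted but not reported here by name.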

Additional observations from a re-analysis of the deposited data

Results flagged for a closer look

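Of 77 groups of follicles in which a single extreme value was looked for, 7 had one far from the others of its group, and chance flags about 5% of such groups. In batch 1 at 4 h, replicate 10 was the lowest for the catalytic subunit Psmb6, at 177 CPM with the next follicle at 219, and the highest for the activator Psme4, at 19.2 CPM with the next at 10.4. In batch 1 at 1 h, replicate 10 was the highest for Psmb7, at 57.1 CPM with the next at 39.4, and for Psmb8, at 20.2 CPM with the next at 11.1. Psmf1 was lowest in replicate 9 of batch 1 at 1 h, at 3.56 CPM with the next at 12.4. Psmb9 was highest in replicate 5 of batch 1 at 4 h, at 2.79 CPM with the next at 1.44. At 0 h, Psmd10 was highest in replicate 3, at 47.6 CPM with the next at 19.8.

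Psmc6 was set apart by a test of the difference itself: its change at 4 h against 1 h was larger in batch 2 than in batch 1 by 1.07 on the log2 scale.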

How the results depend on the processing

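Of the values of the members that were always named or had the largest called changes, 2057 kept their side of the threshold under the alternatives. A further 77 newly passed it, 184 no longer passed it and 7 reversed. Companion genes and the other members were not among these values. Of the main counts, medians and shares 185 held and 36 moved. Replicate numbers are shared between groups, but no pair of groups had every same-numbered pair correlated above 0.1. At most 2 of 10 follicles matched their own number best. The labels give the numbers no meaning, and weak correlations between single follicles cannot exclude that same-numbered ones share an animal. With a replicate block the calls were 1 at 1 h, 3 at 4 h and 1 at 8 h against 0 h, and 0 for the difference between batches. Thinning every library to the smallest left fewer counts and 34 members tested. It gave 0, 4 and 2 calls against 0 h, 5 at 4 h against 1 h, 4 at 8 h against 1 h, 1 at 8 h against 4 h, 6 in the joint test and 0 between batches, with medians of 0.21, 0.36 and 0.58 at 1, 4 and 8 h against 0 h. Batch 2 alone gave 5 calls at 1 h and 12 at 4 h against 0 h and 2 at 4 h against 1 h. The term for the plate gave 9 calls at 4 h against 1 h and 7 at 8 h against 4 h. Without the _ds follicles there were 4 calls at 1 h, and medians of −0.12, 0.24 and 0.28 at 1, 4 and 8 h against 0 h. Leaving out each batch 2 follicle at 1 h or 4 h in turn gave 7 to 13, 21 to 24 and 21 to 25 calls against 0 h, 25 to 27 at 4 h against 1 h, 26 to 29 at 8 h against 1 h, 15 to 19 at 8 h against 4 h and 0 to 1 between batches. The medians then ran −0.35 to −0.21, −0.05 to 0.11 and 0.051 to 0.25 against 0 h. Without the genes absent from batch 2 after hCG the median at 4 h against 0 h was 0.17, and without a filter on low counts no member differed between batches (0). Reversed at 4 h against 1 h were Psmb5 (−0.065 with the plate term, −0.035 in batch 2 alone), Psmg2 (0.13 and 0.12) and Psmd3 (−0.060 and −0.036, and −0.13 thinned), and, not among those counted, Psmb4 with the plate term (−0.021) and Psmb1 at 8 h against 0 h thinned (0.11). By counts instead of TPM, the Psmb8 share was 10.0% at 0 h and 5.17% at 4 h and the Psmb9 share 1.68% at 0 h. The summed level at 0 h was 7542 TPM without the absent genes, an alternative chosen after seeing the data. The cause of these moves was not tested. Depth was lowest at 1 h by the median library, and 7 members had too few counts for the test.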
